A study of Rattus norvegicus with 9 samples.

Results

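The 29 genes described here encode the enzymes of cholesterol synthesis from acetyl-CoA, the proteins that sense sterols and switch the pathway on, and a few neighbours that store, move or branch off its products. They were taken as a list of gene symbols, with older symbols allowed for Msmo1 (Sc4mol) and Sc5d (Sc5dl), a rule that uses no measured value, although the list was set with earlier results of these data known. Of the 29, 27 were read by at least 1 probe set that names a single gene, out of 14377 such genes on the array. No such probe set was found for Soat2 and Pdss1, which are not analysed here. Where a gene had several, the one with the brightest mean signal over all 9 arrays was used. Of the 27, 25 were called present on all 9 arrays, Dhdds was called present on 3, and Soat1 on none.

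Liver RNA came from male Sprague-Dawley rats, with 1 array for each rat and 3 rats in each of 3 groups. Vehicle rats were the controls. CCl4 rats received intraperitoneal CCl4 in olive oil for 8 weeks, a standard way to scar the liver. CCl4+Rot rats received CCl4 and also rottlerin, which the labels call a BK channel activator, at 2.5 mg per kg from 2 weeks after the first CCl4 injection. No group received rottlerin without CCl4, so its effect can be read only in injured liver, and the ages of the rats, the make-up of the vehicle and the number of rottlerin doses are not given in the sources used here. Each value is a log2 signal deposited by the authors, so a difference of 1 is a doubling. A difference with CCl4 means CCl4 minus vehicle, and a difference with rottlerin means CCl4+Rot minus CCl4. With 3 arrays a group, precision is limited by that number. Signals are given below in the order vehicle rats 3, 4 and 5, CCl4 rats 1, 2 and 3, and CCl4+Rot rats 4, 5 and 6. Between 15550 and 16849 probe sets were called present on 8 arrays, and 12714 on the array of CCl4 rat 3. That array also had the highest median signal over all probe sets, 7.81 against 6.79 to 7.01 on the other 8, so results are given below with and without it. All 10 hepatocyte markers, among them Alb and Apoa1, were called present on all 9 arrays.

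Hepatocytes make cholesterol from acetyl-CoA through mevalonate, isoprenyl diphosphates, squalene and lanosterol. The transcription factor SREBP2, the product of Srebf2, waits in the endoplasmic reticulum bound to the escort protein Scap, and the sterol-sensing Insig proteins hold both there while sterols are plentiful. When sterols run low, SREBP2 is released, cut and carried to the nucleus, where it switches on nearly every enzyme of the pathway together, usually with the help of NF-Y, which binds CCAAT boxes, and of Sp1, which binds GC boxes. Insig1 is itself an SREBP target, which makes a feedback loop.

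Promoter sequence for 24 of the 29 genes was taken from RefSeq (rat build GRCr8), and none was found for Pmvk, Fdft1, Sqle, Soat2 and Stard4. In the 250 bases before the transcription start, searched on both strands, the NF-Y box CCAAT was found in 19 of 24 genes (79.2%), compared with 35.5% of 19005 protein-coding promoters of the same length. The GC box GGGCGG was found in 18 of 24 (75%), compared with 40.3% of all. The sterol regulatory element TCACNCCAC was found in 0 of 24 and in 0.916% of all, and the shorter CACNCCAC, which lies within it, in 3 of 24 (12.5%) and in 4.79% of all. Among the detected genes with a sequence, a CCAAT box was found for 11 of the 15 whose CCl4 livers all lay above the vehicle livers, and for 7 of the other 7. Of these, 5 sequences are shown, 5′ to 3′ on the strand of the gene, with each CCAAT box in capitals (ATTGG where the box is on the opposite strand). Idi1, Fdps and Msmo1 hold several boxes and had higher signals in CCl4 livers, Dhcr7 holds none and had the smallest p value of the list in that comparison, and Ggps1 holds 1 and had group means that differed by no more than 0.28 on the log2 scale.
Idi1, chr17:66547525-66547774, minus strand: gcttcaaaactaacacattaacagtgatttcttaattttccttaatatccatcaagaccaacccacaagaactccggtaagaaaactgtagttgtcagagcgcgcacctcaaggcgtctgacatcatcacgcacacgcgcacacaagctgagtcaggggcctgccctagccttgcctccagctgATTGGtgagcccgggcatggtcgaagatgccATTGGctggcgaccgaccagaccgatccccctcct
Fdps, chr2:176804817-176805066, minus strand: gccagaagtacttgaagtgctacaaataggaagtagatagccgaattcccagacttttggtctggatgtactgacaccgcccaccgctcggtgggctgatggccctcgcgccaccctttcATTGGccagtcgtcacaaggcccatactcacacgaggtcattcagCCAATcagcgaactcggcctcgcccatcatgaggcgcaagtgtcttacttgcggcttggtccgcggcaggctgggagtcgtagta
Msmo1, chr16:29746863-29747112, plus strand: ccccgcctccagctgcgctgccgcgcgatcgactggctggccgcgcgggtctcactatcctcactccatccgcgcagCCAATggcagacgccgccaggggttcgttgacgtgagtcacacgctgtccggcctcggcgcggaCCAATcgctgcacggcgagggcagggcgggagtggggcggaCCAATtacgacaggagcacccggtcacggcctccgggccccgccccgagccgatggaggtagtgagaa
Dhcr7, chr1:208444184-208444433, plus strand: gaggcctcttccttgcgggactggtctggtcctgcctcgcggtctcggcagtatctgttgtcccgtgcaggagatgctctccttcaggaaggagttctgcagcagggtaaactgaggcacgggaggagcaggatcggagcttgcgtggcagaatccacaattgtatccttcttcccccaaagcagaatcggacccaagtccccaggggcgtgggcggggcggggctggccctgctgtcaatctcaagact
Ggps1, chr17:55958500-55958749, plus strand: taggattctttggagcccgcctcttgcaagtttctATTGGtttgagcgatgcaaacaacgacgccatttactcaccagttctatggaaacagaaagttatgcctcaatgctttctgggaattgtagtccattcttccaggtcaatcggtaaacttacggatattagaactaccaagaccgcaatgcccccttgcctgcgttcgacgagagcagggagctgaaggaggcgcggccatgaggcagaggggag

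The cholesterol genes were higher in CCl4 than in vehicle livers. Of the 27 measured, 25 had a higher mean (61.2% of all genes did), and for 19 every CCl4 liver lay above every vehicle liver, a pattern that 12.5% of all genes showed. The median log2 difference was 0.85 over the 27 genes and 0.13 over all genes, and 19 of the 27 were at least 1.5-fold higher, compared with 24.2% of all genes. These counts include Soat1, which was never called present. Without it, 18 of 26 genes did not overlap (13.2% of the 10732 genes present on at least 1 array) and 18 were at least 1.5-fold higher (16% of them). The widest differences among detected genes were those of Acat2 (3.09-fold), Idi1 (3.02-fold), Sqle (3.00-fold), Mvd (2.96-fold) and Dhcr7 (2.76-fold), which lie at the start, middle and end of the pathway.

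A gene passed the test when it differed by 1.5-fold or more with a limma p value under 0.05 after Benjamini-Hochberg adjustment over every probe set tested. By this test 0 of the 27 genes, and 0 of all 14377 (0%), passed between CCl4 and vehicle, and the smallest adjusted p was 0.18, for Dhcr7. At an unadjusted limma p under 0.05, 15 of the 27 genes were higher, compared with 9.49% of all genes, or 14 of 26 without Soat1 (9.6% of genes present on at least 1 array). A limma fit that lets the spread follow the signal and is robust to outlying genes called 8 of the 27, all higher with CCl4, and 1.09% of all genes in that direction. These were Acat2, Pmvk, Mvd, Idi1, Fdps, Fdft1, Cyp51 and Dhcr7. When single arrays were left out, the robust fit called between 1 and 8 of the 27, where it called from 0.146% (without vehicle rat 4) to 3.8% (without CCl4 rat 1) of all genes in both directions. It called 1 without vehicle rat 4, 2 without CCl4 rat 2, and 4 without vehicle rat 3, vehicle rat 5 or CCl4+Rot rat 5. Without CCl4 rat 3 it called 5, among them Soat1, which was never called present. Dhcr7 was called in each of these 9 fits. In whole liver, a change in the number of cells of a type and a change in RNA per cell cannot be told apart.

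In the CCl4+Rot livers the cholesterol genes, by their median, lay between the other groups. Compared with CCl4 livers, 25 of the 27 had a lower mean (56.2% of all genes did), and for 11 the CCl4+Rot livers lay wholly below the CCl4 livers, compared with 5.6% of all genes. The median log2 difference was -0.46, against -0.05 over all genes, and 10 of the 27 were at least 1.5-fold lower, compared with 17.8% of all genes. Limma called 0 of the 27 (0% of all genes), with a smallest adjusted p of 0.608 for Dhdds, the robust fit called 0 (0.00696% of all genes), and 9 of the 27 were lower at an unadjusted limma p under 0.05, compared with 3.4% of all genes. The CCl4 livers enter both this comparison and the first, so their values push the differences in opposite directions and the counts do not stand as separate evidence. Compared with vehicle livers, 20 of the 27 genes (and 53.8% of all genes) were higher in CCl4+Rot livers, with a median of 0.31 (0.03 over all genes). Every CCl4+Rot liver lay above every vehicle liver for 4 of them (Mvk, Srebf2, Lipa and the undetected Soat1), against 15.2% of all genes. The lowest CCl4+Rot liver was only 0.007 above the highest vehicle liver for Srebf2 and 0.05 for Lipa. By a second detected probe set of Mvk these 2 groups overlapped. For 1 of the 27 the CCl4+Rot livers lay wholly below the vehicle livers, against 9.47% of all genes. Limma and the robust fit called 0 of the 27 in this last comparison, where they called 0.0209% and 1.17% of all genes, and 1 of the 27, the undetected Soat1, had an unadjusted limma p under 0.05, compared with 7.46% of all genes higher at that level.

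The counts fell when arrays were centred on the median over all probe sets, and not under the other scalings run. Centring each array on its median over all probe sets lowered every CCl4 minus vehicle difference by 0.36 on the log2 scale, raised every CCl4+Rot minus CCl4 difference by 0.25 and lowered every CCl4+Rot minus vehicle difference by 0.11. The array of CCl4 rat 3, with the highest median, was moved most. After this centring 19 of the 27 genes were higher and 8 lower with CCl4 (34.3% of all genes were higher), and 8 of the 27 genes had CCl4 livers all above the vehicle livers (4.99% of all genes). With rottlerin, 8 were then higher and 19 lower than in CCl4 livers (31.8% of all genes were lower), and 2 lay wholly below (3.27% of all genes). The median over the 11231 probe sets present on all 9 arrays ran from 9.51 to 9.58. Centring on it left 19 genes wholly higher with CCl4 and 12 wholly lower with rottlerin (12.3% and 6.62% of all genes). Quantile normalization gave 21 and 13 (10.8% and 5.82%). Without the array of CCl4 rat 3 and with the deposited scale, 21 of the 27 had both CCl4 livers above every vehicle liver (17.9% of all genes did), the median difference was 0.88, and 16 had both CCl4 livers above every CCl4+Rot liver (10.4% of all genes).

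**Figure D1:**
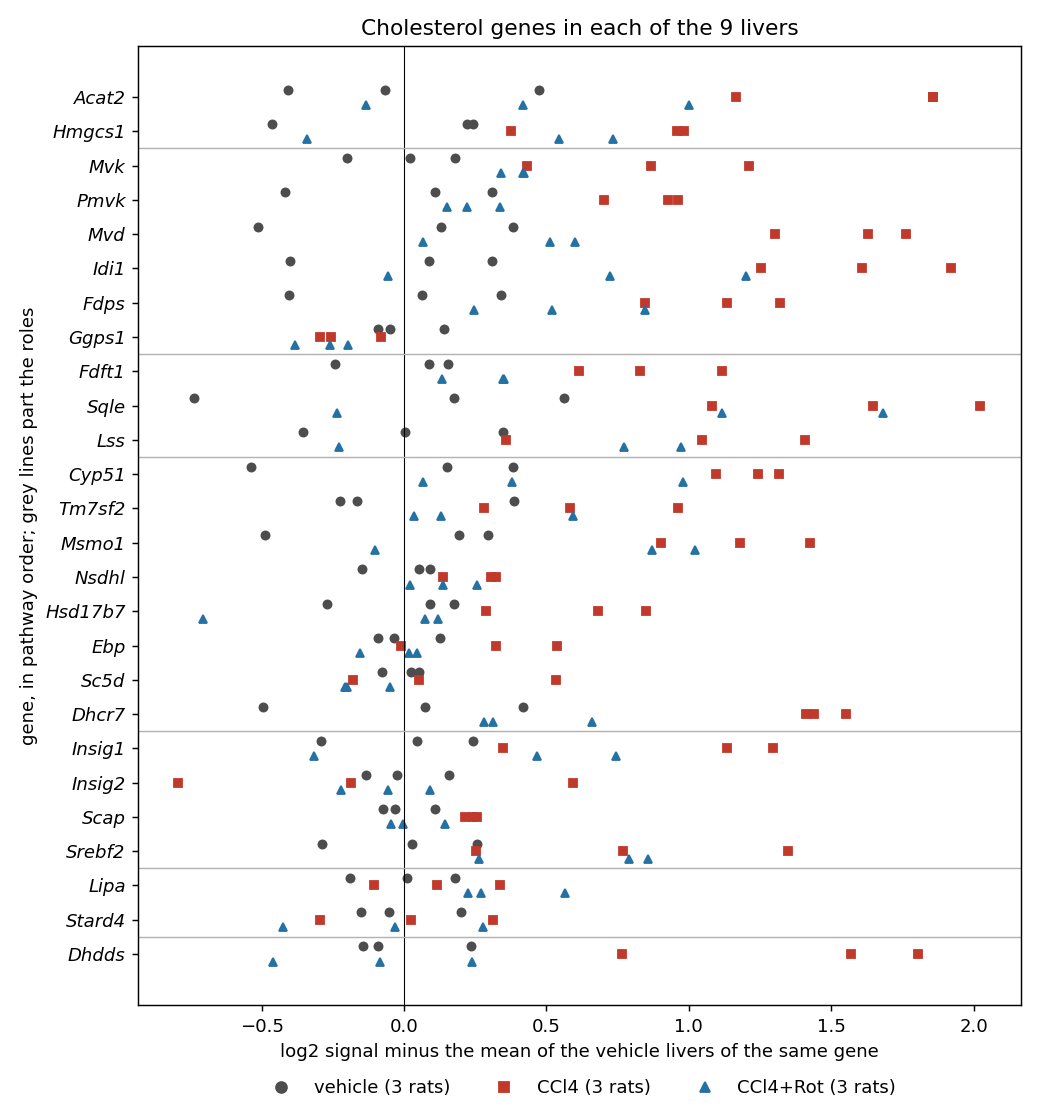
Log2 signal of the 26 detected cholesterol genes in each of the 9 livers, on the x axis as the distance from the vehicle mean of the same gene, with 1 point per rat (circles vehicle, squares CCl4, triangles CCl4+Rot) and genes in pathway order on the y axis. The CCl4 squares of Mvd and Dhcr7 stand clear of both other groups, while those of Ggps1, Insig2 and Stard4 do not.

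The pathway starts with Acat2, the cytosolic thiolase that joins acetyl-CoA units, and Hmgcs1, the cytosolic HMG-CoA synthase. The log2 signal of Acat2 was 9.15, 8.81 and 9.69 in vehicle, 10.38, 11.07 and 11.07 in CCl4 and 9.08, 9.63 and 10.21 in CCl4+Rot livers. All 3 CCl4 livers lay above the other 6. Acat2 differed by 1.63 with CCl4 (standard error 0.370, robust limma adjusted p = 0.0254) and by -1.20 between CCl4+Rot and CCl4 livers (limma adjusted p = 0.724). The signal of Hmgcs1 was 13.35, 12.65 and 13.33 in vehicle, 13.49, 14.07 and 14.10 in CCl4 and 12.77, 13.66 and 13.85 in CCl4+Rot livers. The CCl4 livers lay above the vehicle livers and overlapped the CCl4+Rot livers, and the log2 differences were 0.77 and -0.46, with limma adjusted p values of 0.428 and 0.787.

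The next enzymes turn mevalonate into isoprenyl diphosphates. Mvd, which decarboxylates diphosphomevalonate to isopentenyl diphosphate, had signals of 8.53, 7.63 and 8.28 in vehicle, 9.45, 9.91 and 9.78 in CCl4 and 8.21, 8.75 and 8.66 in CCl4+Rot livers. The lowest CCl4 liver stood 0.70 above the highest of the other 6. Mvd differed by 1.56 with CCl4 (standard error 0.282, robust limma adjusted p = 0.0114), by -1.17 between CCl4+Rot and CCl4 livers (limma adjusted p = 0.635), and by 0.39 between CCl4+Rot and vehicle livers. The signal of Idi1, the isomerase of isopentenyl diphosphate, was 11.34, 10.63 and 11.11 in vehicle, 12.28, 12.95 and 12.64 in CCl4 and 10.97, 11.75 and 12.23 in CCl4+Rot livers. The CCl4 livers were highest, but CCl4+Rot rat 6 lay only 0.05 below CCl4 rat 1. Idi1 differed by 1.59 with CCl4 (robust limma adjusted p = 0.0282) and by -0.97 with rottlerin, and its other probe set gave 1.63 and -1.08.

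Mevalonate kinase (Mvk) had signals of 9.00, 8.62 and 8.85 in vehicle, 9.26, 10.04 and 9.69 in CCl4 and 9.24, 9.17 and 9.24 in CCl4+Rot livers. Its 3 groups did not overlap, with CCl4+Rot between the others, although CCl4 and CCl4+Rot livers were only 0.01 apart. The log2 differences were 0.84 with CCl4, -0.44 with rottlerin and 0.39 for CCl4+Rot against vehicle, and a second detected probe set gave 0.97, -1.04 and -0.07, so the level with rottlerin relative to vehicle was not settled for this gene. Phosphomevalonate kinase (Pmvk) had signals of 9.59, 9.06 and 9.79 in vehicle, 10.44, 10.41 and 10.18 in CCl4 and 9.63, 9.70 and 9.82 in CCl4+Rot livers. Here the CCl4 livers were separate from both other groups, which overlapped each other, and Pmvk differed by 0.86 with CCl4 (robust limma adjusted p = 0.0406) and by -0.63 with rottlerin.

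Farnesyl diphosphate synthase (Fdps) makes the last intermediate shared by sterols and other isoprenoids. Its signal was 12.82, 12.36 and 13.10 in vehicle, 13.90, 14.08 and 13.61 in CCl4 and 13.01, 13.28 and 13.61 in CCl4+Rot livers, a difference of 1.10 with CCl4 (robust limma adjusted p = 0.0282). The CCl4 livers lay above the vehicle livers, and CCl4 rat 3 and CCl4+Rot rat 6 were level. Ggps1 makes geranylgeranyl diphosphate on the branch toward prenylated proteins. Its signal was 8.29, 8.33 and 8.52 in vehicle, 8.30, 8.12 and 8.08 in CCl4 and from 7.996 to 8.18 in CCl4+Rot livers, so it ranged over 0.52 on the log2 scale across all 9 rats, and the CCl4 minus vehicle difference was -0.21 (95% confidence interval -0.57 to 0.15). All CCl4+Rot livers were below all vehicle livers for this gene, by its other 2 probe sets as well.

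From squalene to lanosterol all 3 enzymes had CCl4 livers wholly above the vehicle livers. Fdft1, squalene synthase, commits farnesyl diphosphate to sterols. Its signal was 11.53, 11.14 and 11.46 in vehicle, 12.49, 12.21 and 11.99 in CCl4 and 11.51, 11.72 and 11.73 in CCl4+Rot livers. The CCl4 livers were separate from both other groups, with differences of 0.85 (standard error 0.198, robust limma adjusted p = 0.0282) and -0.58, and the second probe set gave 0.85 and -0.54. Sqle, squalene epoxidase, is a rate-limiting enzyme of the pathway. Its signal was 9.13, 8.21 and 9.51 in vehicle, 10.03, 10.97 and 10.60 in CCl4 and 8.71, 10.07 and 10.63 in CCl4+Rot livers. The spread within the groups was the widest of the list (standard error 0.553 on a difference of 1.58), and the CCl4+Rot rats ranged from below the vehicle mean to the level of the CCl4 rats. Lss, lanosterol synthase, had signals of 8.91, 8.56 and 9.26 in vehicle, 9.27, 10.32 and 9.96 in CCl4 and 8.68, 9.68 and 9.88 in CCl4+Rot livers. Its lowest CCl4 liver was only 0.01 above its highest vehicle liver, and the difference of 0.94 had a 95% confidence interval from -0.0017 to 1.88.

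The last 8 enzymes convert lanosterol to cholesterol, and 5 of them had CCl4 livers wholly above the vehicle livers. Dhcr7, a reductase at the end of the pathway, had signals of 10.99, 10.08 and 10.65 in vehicle, 12.01, 12.13 and 11.99 in CCl4 and 10.89, 10.86 and 11.24 in CCl4+Rot livers. The 3 CCl4 livers spanned 0.14, and the lowest of them stood 0.75 above the highest of the other 6. Dhcr7 differed by 1.47 with CCl4 (standard error 0.252, robust limma adjusted p = 0.00813), by -1.05 with rottlerin (robust limma adjusted p = 0.138) and by 0.42 between CCl4+Rot and vehicle. The signal of Cyp51, the cytochrome P450 that demethylates lanosterol, was 11.89, 11.20 and 12.12 in vehicle, 13.05, 12.98 and 12.83 in CCl4 and 11.80, 12.11 and 12.71 in CCl4+Rot livers. CCl4 livers again lay above the other 6. The mean difference was 1.22 with CCl4 (robust limma adjusted p = 0.0362) and -0.74 with rottlerin.

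Msmo1, the methylsterol monooxygenase, had signals of 11.93, 11.25 and 12.03 in vehicle, 12.64, 13.16 and 12.92 in CCl4 and 11.63, 12.61 and 12.76 in CCl4+Rot livers. It was 2.25-fold higher with CCl4 and the CCl4+Rot rats were split, with rat 4 inside the vehicle range and rats 5 and 6 near the lowest CCl4 rat. Hsd17b7, which reduces the keto group left by demethylation, had signals of 10.14, 9.78 and 10.22 in vehicle, 10.33, 10.90 and 10.73 in CCl4 and 9.34, 10.12 and 10.16 in CCl4+Rot livers. The log2 differences were 0.61 with CCl4 and -0.78 with rottlerin, and its second probe set, present on 6 arrays, gave 1.02 and -0.56. Nsdhl, the sterol dehydrogenase that acts after Msmo1, stayed within a narrow range, 12.95, 12.75 and 12.98 in vehicle, 13.03, 13.22 and 13.20 in CCl4 and 12.91, 13.03 and 13.15 in CCl4+Rot livers. Its difference of 0.25 with CCl4 turned to -0.10 after median centring, and the other probe set gave 0.02.

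For the other 3 enzymes of this stretch the CCl4 and vehicle livers overlapped. Tm7sf2, a sterol reductase, was 1.52-fold higher with CCl4, with signals of 11.40, 10.79 and 10.84 in vehicle and 11.97, 11.29 and 11.59 in CCl4 livers that overlapped. Ebp, a sterol isomerase, had a log2 difference of 0.28 with CCl4 (95% confidence interval -0.15 to 0.72), and Sc5d, the desaturase that follows it, of 0.14 (-0.35 to 0.62). Both intervals include 0 and a gain of 1.5-fold, and both differences turned negative after median centring (-0.07 and -0.22). In CCl4+Rot livers, Tm7sf2, Ebp and Sc5d were at -0.35, -0.31 and -0.29 relative to CCl4 livers, with overlap.

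**Figure D2:**
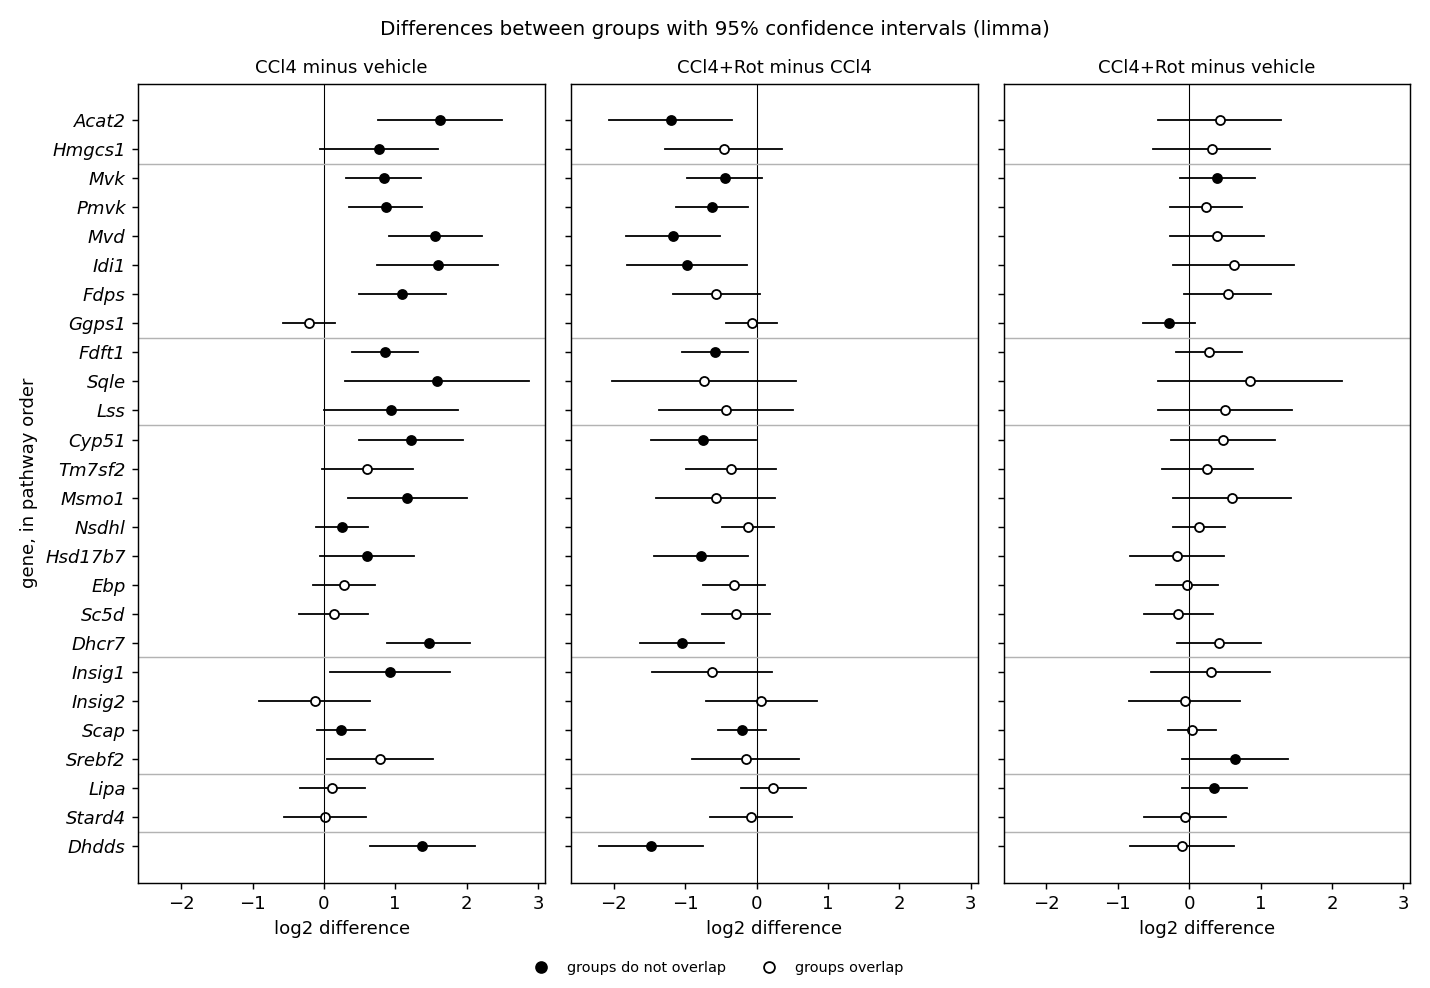
Log2 differences (x axis) of the 26 detected cholesterol genes (y axis) in each of the 3 comparisons, with 95% confidence intervals from limma, not adjusted for the number of genes; filled points mark genes whose groups do not overlap. The 15 filled enzymes of the first panel run through the whole pathway, and in the last panel each interval includes 0.

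The 4 genes of sterol sensing and transcription had unlike patterns. The signal of Insig1, the feedback target of SREBP, was 11.67, 12.01 and 12.21 in vehicle, 13.26, 13.10 and 12.31 in CCl4 and 11.65, 12.71 and 12.43 in CCl4+Rot livers. CCl4 livers lay above vehicle livers, with rats 1 and 2 well above and rat 3 by only 0.11, and the difference was 0.93 (1.21 without CCl4 rat 3). With rottlerin it was -0.63, with overlap, and -0.92 without that rat. Insig2, which also retains Scap but is not driven by SREBP2 in the same way, had signals of 12.79, 12.60 and 12.49 in vehicle, 13.22, 12.44 and 11.83 in CCl4 and 12.72, 12.57 and 12.40 in CCl4+Rot livers. The vehicle and CCl4+Rot rats lay inside the range of the CCl4 rats, which spread over 1.39, and the CCl4 difference of -0.13 became 0.20 without CCl4 rat 3.

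Srebf2, the gene for SREBP2, had signals of 9.45, 8.91 and 9.22 in vehicle, 9.45, 9.96 and 10.54 in CCl4 and 9.46, 9.98 and 10.05 in CCl4+Rot livers. It was 1.73-fold higher in CCl4 livers with overlap, since CCl4 rat 1 sat level with the highest vehicle rat, and the log2 difference was 0.79, or 0.51 without CCl4 rat 3. Unlike most enzymes, its mean in CCl4+Rot livers stayed near that in CCl4 livers. The CCl4+Rot minus CCl4 difference was -0.15 (95% confidence interval -0.90 to 0.59), and it was 0.13 without CCl4 rat 3 and 0.09 after median centring. Whether Srebf2 differed from the enzymes in this respect was not tested. Scap, the escort protein, ranged from 9.75 to 9.93 in vehicle, 10.04 to 10.08 in CCl4 and 9.78 to 9.97 in CCl4+Rot livers. The CCl4 livers were separate from the other 6, but by no more than 1.18-fold on average, and the differences of 0.24 and -0.20 changed sign after median centring (-0.12 and 0.04).

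**Figure D3:**
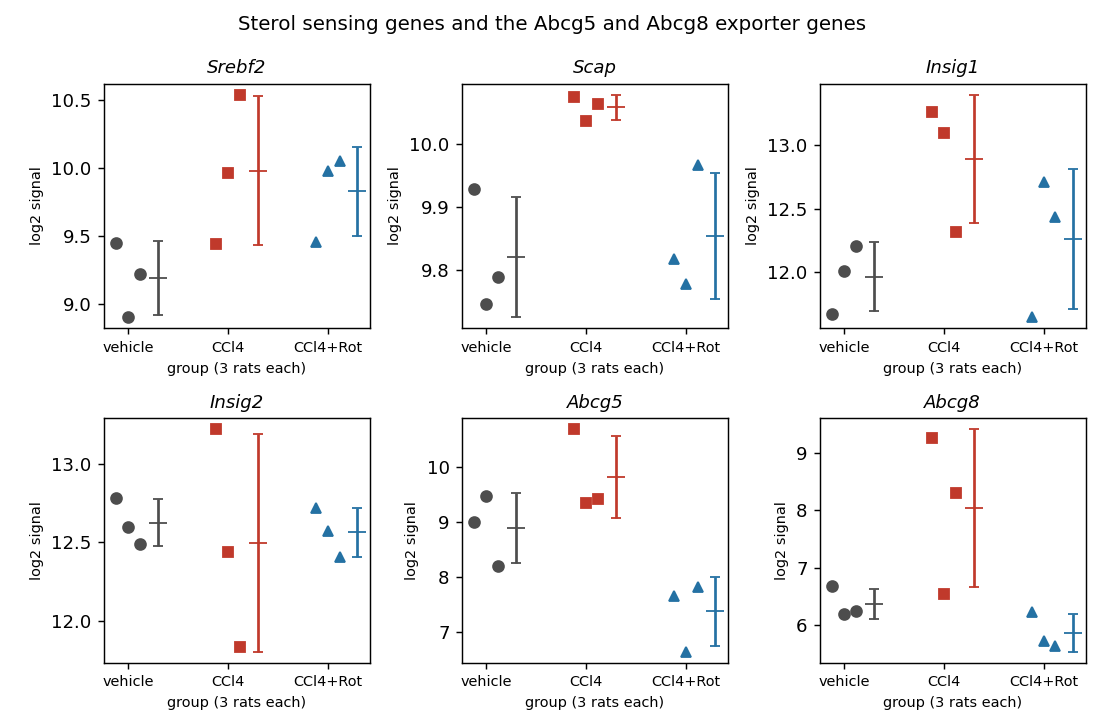
Log2 signal (y axis) of 4 genes of sterol sensing and transcription and of the exporter genes Abcg5 and Abcg8 in each rat. The mean and SD of each group of 3 stand beside the points. The y axes differ between panels and do not start at 0. Srebf2 in CCl4+Rot livers stays near its CCl4 level, whereas Abcg5 is lower in every CCl4+Rot liver than in every other liver.

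Of the listed genes for storing, releasing and moving cholesterol, Lipa and Stard4 were detected. Lipa, the lysosomal lipase that frees cholesterol from its esters, had signals of 12.21, 12.05 and 11.84 in vehicle, 12.37, 12.15 and 11.93 in CCl4 and 12.60, 12.26 and 12.30 in CCl4+Rot livers. It was the only detected gene of the list besides Insig2 with a higher mean in CCl4+Rot than in CCl4 livers (0.24), and its CCl4+Rot livers lay above all vehicle livers (0.35, 95% confidence interval -0.10 to 0.81). Its CCl4 minus vehicle difference was 0.12, and -0.24 after median centring. Stard4, which carries sterols between membranes, differed by 0.01, -0.07 and -0.06 in the 3 comparisons, with 95% confidence intervals that reach from -0.56 to 0.59 in the first, and each sign turned under another setting (-0.34 after median centring in the first, 0.15 and 0.01 with array weights in the others). Soat1, an enzyme that esterifies cholesterol, was called absent on every array, so no fold is given.

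On the branches that leave farnesyl diphosphate, Dhdds, a subunit of the enzyme that makes the dolichol chain, was called present on 2 CCl4 arrays, 1 CCl4+Rot array and 0 vehicle arrays. Its signal was 6.62, 6.24 and 6.29 in vehicle, 7.96, 7.15 and 8.19 in CCl4 and 6.30, 5.93 and 6.62 in CCl4+Rot livers. CCl4 livers lay above the other 6, and the CCl4 mean of Dhdds was 2.60-fold above the vehicle mean (limma adjusted p = 0.224). This size is uncertain because no vehicle array detected the gene. Each vehicle signal already lay above the lowest present signal of its array. The difference between CCl4+Rot and CCl4 livers was -1.48 (standard error 0.314, limma adjusted p = 0.608), a size that is uncertain because 2 of the 3 CCl4+Rot arrays did not detect it.

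More enzymes shared the same lowest rat in the vehicle and CCl4+Rot groups than in the CCl4 group. The mean signal over the 19 synthesis enzymes was 10.83, 10.34 and 10.88 in vehicle, 11.48, 11.73 and 11.55 in CCl4 and 10.63, 11.08 and 11.25 in CCl4+Rot livers. The 3 CCl4 livers were close together (SD 0.13) and above the other 6, while vehicle (SD 0.30) and CCl4+Rot livers (SD 0.32) spread more. Vehicle rat 4 was the lowest of its group for 18 of the 19 enzymes, compared with 33.8% of all detected genes. In the CCl4+Rot group, rat 4 was lowest for 16 of the 19 and rat 6 highest for 16, compared with 33.4% and 36.2% of detected genes. In the CCl4 group rat 1 was lowest for 10 and highest for 7 of the 19, and rat 3 was lowest for 8, compared with 38.9%, 27.3% and 35.9% of detected genes. CCl4 rat 2 was highest for 11 and lowest for 1, compared with 29.3% and 25.2%. The CCl4+Rot group spanned the range from the vehicle level to near the CCl4 level, and without CCl4+Rot rat 4 the number of genes whose CCl4+Rot livers all lay above the vehicle livers was 14 in place of 4 (7 without vehicle rat 3), while the share of all genes was 20.5% in place of 15.2% (21.6% without vehicle rat 3).

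Markers of other cells also differed between the groups, and their part in these results was not tested. Of the 10 stellate cell and myofibroblast markers, all called present on at least 8 arrays, 10 had a higher mean in CCl4 than in vehicle livers. Their list mean was 8.49 to 8.89 in vehicle, 9.46 to 10.04 in CCl4 and 9.93 to 10.08 in CCl4+Rot livers, so it did not lie lower with rottlerin, as the enzymes did. The mean of 8 proliferation genes was 6.47 to 7.02, 7.42 to 8.92 and 7.33 to 7.91, and that of 5 cholangiocyte markers 6.12 to 6.40, 7.17 to 7.88 and 6.56 to 7.12, both with group means in the order of those of the enzymes. The cholangiocyte differences with CCl4 ran from -0.04 to 5.00 (median 0.48), so their mean leans on the widest of them. Between CCl4+Rot and CCl4 they ran from -2.09 to 0.44 (median -0.30). Krt7 was never called present and Sox9 was not measured. The mean of 7 macrophage markers was 9.49 to 9.71, 9.78 to 10.36 and 10.48 to 10.74, with Itgam never present and Marco not measured, and that of 5 endothelial markers 9.98 to 10.01, 9.67 to 10.07 and 10.18 to 10.30. The mean of 7 T and NK cell markers was 5.50 to 6.27, 5.39 to 7.10 and 5.91 to 6.71, with Cd3d, Cd8a and Cd2 never present. The mean of the 10 hepatocyte markers was 14.54 to 14.69, 13.91 to 14.57 and 14.42 to 14.57, and was lowest in CCl4 rat 3, while the enzymes of that rat were as high as those of the other CCl4 rats.

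**Figure D4:**
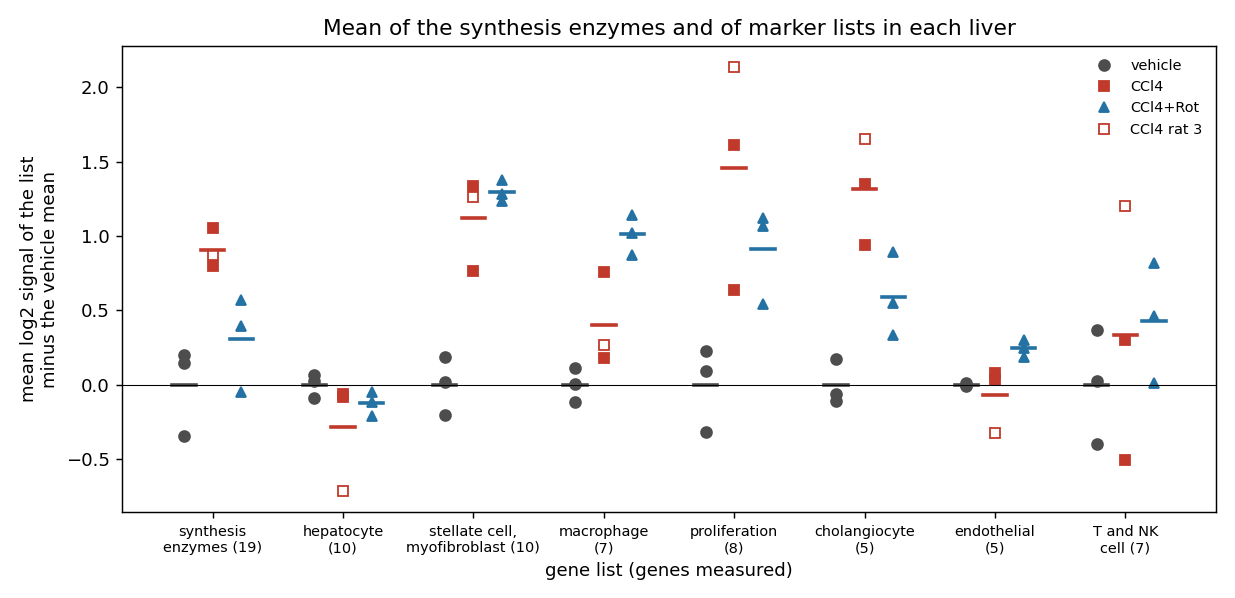
Mean log2 signal of the 19 synthesis enzymes and of 7 marker lists in each liver, on the y axis as the distance from the vehicle mean of the list, with bars at the group means and the array of CCl4 rat 3 as open squares. The enzymes, proliferation and cholangiocyte lists have their highest group means in CCl4 livers, whereas the stellate cell list is about as high in CCl4+Rot livers.

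Genes around the pathway did not follow the enzymes as a group. The lists covered SREBP processing and sterol-regulated degradation, LXR and cholesterol export, and cholesterol transfer and uptake. They also covered acetyl-CoA and NADPH supply, and prenylation, ubiquinone and dolichol synthesis. Of their 39 genes, 37 were measured. Limma and the robust fit called 0 of the 37 in each of the 3 comparisons. At an unadjusted limma p under 0.05, 5 were higher and 1 lower with CCl4 (9.49% and 4.01% of all genes). The counts were 0 and 3 with rottlerin (2.1% and 3.4%), and 3 and 1 between CCl4+Rot and vehicle (7.46% and 2.33%). Groups did not overlap for 7 higher and 5 lower with CCl4 (12.5% and 8.53% of all genes). Without overlap, 2 were higher and 6 lower with rottlerin (5.57% and 5.6%), and 6 and 5 between CCl4+Rot and vehicle (15.2% and 9.47%). The median differences of the 37 genes were 0.02, 0.09 and 0.07. The genes with the smallest p in the first comparison were Fntb, a farnesyltransferase subunit, Rce1, a protease of prenylated proteins, and Srd5a3, a reductase of dolichol synthesis. Fntb was present on 2 vehicle and 0 CCl4 arrays and 2.09-fold higher in vehicle livers, and Rce1 differed by 0.47. Srd5a3 was present on 3 CCl4 and 0 vehicle arrays and 1.79-fold higher in CCl4 livers. The folds of Fntb and Srd5a3 are uncertain in size, since 1 group did not detect them.

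With rottlerin the smallest p values were those of Abcg5 and Abcg8, the paired half-transporters that export sterols to bile, and of Rce1 (-0.38). Abcg5 had signals of 8.99, 9.46 and 8.20 in vehicle, 10.67, 9.34 and 9.42 in CCl4 and 7.66, 6.65 and 7.81 in CCl4+Rot livers. Every CCl4+Rot liver lay below the other 6. The group mean differed by -2.44 from CCl4 (standard error 0.509, limma adjusted p = 0.608) and by -1.51 from vehicle. Abcg8 was called present on 2 vehicle, 2 CCl4 and 0 CCl4+Rot arrays, with signals of 6.67, 6.20 and 6.24 in vehicle, 9.26, 6.54 and 8.29 in CCl4 and 6.23, 5.73 and 5.63 in CCl4+Rot livers. Its CCl4 mean was 4.49-fold above the CCl4+Rot mean (limma adjusted p = 0.689), although CCl4 rat 2 lay near the vehicle level. This size is uncertain because no CCl4+Rot array detected Abcg8. Between CCl4+Rot and vehicle, Srd5a3 (1.74-fold higher in CCl4+Rot livers, not detected in vehicle) and Abcg1, a cholesterol exporter of macrophages (0.73), had the next smallest p values after Abcg5.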

How the data were processed

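Total RNA from frozen liver of 9 rats, 3 each in the vehicle, CCl4 and CCl4+Rot groups, was hybridised to Affymetrix rat arrays. The authors deposited log2 signals with detection calls for 31099 probe sets. Their processing notes name MAS5 and affy. On each array the antilogs average 500 once 2% is trimmed from both ends. Genome build and versions are not given in the sources used here. After removal of 57 control probe sets, the deposited log2 values of 31042 were fitted with limma 3.58.1 (R 4.3.3) as 3 group means, without further normalization. Pathway, neighbouring and marker gene lists and the members were chosen with earlier results of these data known. Every member is named, and of the neighbouring genes the 3 with the smallest p in each comparison. For a named gene present on no array of 1 compared group, signals below the lowest present signal of the array were to be raised to it. None needed raising, so its fold is an ordinary estimate of uncertain size. A gene never present was given no fold, although counts over the 27 members include it. The study's methods name a t-test among others, and 1.5-fold.

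Alternatives were quantile normalization, 2 centrings, 2 filters on low values, a floor, a trended and robust spread (statmod 1.5.0), array weights, only the compared groups, the methods' t-test, the animal number as a block, other probe set rules and each array left out. The counts of groups without overlap under these settings and the robust fit with arrays left out were chosen after seeing the data. Limma was tested on simulated data. With 3 rats against 3, an exact permutation test (two-sided) cannot go below 0.1, so none was used. The labels do not state that the rats were treated independently, and p values set the group differences against the spread between these livers. Animal numbers name different rats and pair none.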

Additional observations from a re-analysis of the deposited data

How the results depend on the processing

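Of the settings run, the trended and robust spread called 8 members between CCl4 and vehicle where limma called 0, and limma on probe sets present on at least 3 arrays called 1, Dhcr7 (0.55% of 9811 genes). With arrays left out, limma called 0 members in each comparison. Without CCl4 rat 3 it also called 0 of all 14377 genes, and for the other arrays that number is not given here. The robust fit called 1 to 8 members between CCl4 and vehicle, against 0.146% to 3.8% of all genes. It called 4 without vehicle rat 3, vehicle rat 5 or CCl4+Rot rat 5, and 1 without vehicle rat 4. The number was 2 without CCl4 rat 2, 5 without CCl4 rat 3 (among them the undetected Soat1) and 7 without CCl4+Rot rat 6. The methods' t-test (unadjusted p under 0.05 and 1.5-fold) passed 15 members between CCl4 and vehicle, 5 between CCl4+Rot and CCl4 and 1 between CCl4+Rot and vehicle, against 6.3%, 2.18% and 8.05% of genes. After adjustment it passed 0 members, and the share of all genes is not given here. Median centring of the arrays took the median difference with CCl4 from 0.85 to 0.50, the members higher without overlap from 19 to 8, those lower with rottlerin from 11 to 2, and those higher in CCl4+Rot than in vehicle livers from 4 to 2, where the shares of all genes went from 12.5% to 4.99%, 5.6% to 3.27% and 15.2% to 9.88%. With arrays left out the last 3 counts were 19 to 21 (12.5% to 25.6% of all genes), 11 to 16 (5.6% to 16.6%), and 4 to 14 (15.2% to 21.6%) (7 without vehicle replicate 3, 14 without CCl4+Rot replicate 4).

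Small differences changed sign. For CCl4 minus vehicle, median centring gave Ebp -0.074, Lipa -0.24, Nsdhl -0.10, Sc5d -0.22, Scap -0.12 and Stard4 -0.34, and Stard4 was -0.026 after quantile normalization and -0.13 with array weights. For CCl4+Rot minus CCl4, centring gave Ggps1 0.18, Nsdhl 0.13, Scap 0.042, Srebf2 0.094 and Stard4 0.17, Ggps1 was 0.093 after quantile normalization and Stard4 0.15 with array weights. For CCl4+Rot minus vehicle, Scap was -0.078 after centring, -0.00419 when centred on probe sets present on 9 arrays and -0.00106 after quantile normalization, Ebp was 0.023 after quantile normalization, Hsd17b7 0.14 as the mean of its probe sets and Stard4 0.014 with array weights. With arrays left out, the CCl4 minus vehicle differences ran from -0.49 to 0.20 for Insig2, -0.062 to 0.29 for Sc5d and -0.14 to 0.17 for Stard4. The CCl4+Rot minus CCl4 differences ran from -0.27 to 0.43 for Insig2, -0.42 to 0.13 for Srebf2 and -0.24 to 0.11 for Stard4. The CCl4+Rot minus vehicle differences ran from -0.27 to 0.078 for Dhdds, -0.076 to 0.033 for Ebp, -0.32 to 0.097 for Hsd17b7, -0.14 to 0.019 for Insig2, -0.023 to 0.087 for Scap and -0.23 to 0.12 for Stard4. The cause was not tested.

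With the animal number as a replicate block, 0 members were called in each comparison and no direction changed. The share of all genes called in that fit is not given here. Same-numbered rats of different groups correlated by 0.02 to 0.068 in their deviations from the group means over 11231 probe sets. Signals near the detection limit bound what can be said of Dhdds and Soat1.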

Other observations

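Of the genes that supply cytosolic acetyl-CoA and NADPH to the pathway 6 were measured. A higher mean in CCl4 than in vehicle livers was found for 4 of the 6, a share near the 61.2% of all genes, and the median difference was 0.35 (0.13 over all genes), with 0 called by limma or the robust fit. Malic enzyme Me1, which makes NADPH, had signals of 9.98, 9.27 and 10.09 in vehicle, 11.20, 10.50 and 10.29 in CCl4 and 10.22, 10.59 and 10.79 in CCl4+Rot livers. The vehicle livers were the 3 lowest of the 9. The acetyl-CoA synthetase Acss2 had signals of 11.63, 10.86 and 11.85 in vehicle, 12.08, 12.19 and 11.89 in CCl4 and 11.41, 11.77 and 11.64 in CCl4+Rot livers, with CCl4 livers above the other 6. Between CCl4+Rot and CCl4 livers the log2 difference was -0.13 for Me1 (limma adjusted p = 0.934) and -0.45 for Acss2 (0.765). These 2 genes were chosen after their values were seen.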
